A study of Mus musculus with 16 samples.

Results

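The genes described here encode the splicing factors and heterogeneous nuclear ribonucleoproteins (hnRNPs) of the mouse, chosen by name from the count table as SR proteins (Srsf), small nuclear ribonucleoprotein polypeptides (Snrp), subunits of splicing factor 3 (Sf3a and Sf3b), and hnRNPs (Hnrnp). Rows of the table numbered 24421, and 52 of them carried such a name: 11 SR proteins, 12 Snrp genes, 9 SF3 subunits, and 20 hnRNPs. The families were chosen with earlier results of these data known. The study's own pathway analysis of these counts lists mRNA splicing among the pathways of genes higher in MAL-BG. Within the families, genes were taken by name and filtered only on low counts, more than 10 counts in at least 4 of the 16 libraries. Of the 52 genes, 50 passed, and 14565 genes in all did. The smallest count of any of these 50 genes in any library was 96, for Snrpg, so none passed through 1 group alone.

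RNA-Seq was carried out on CD11b+ cells of female C57BL/6J mice, taken from brain tissue that the labels call cortical and the study's methods describe as whole cerebra. The diets began at weaning, and the cells were taken after the diet period. CD11b is what antibody-coated magnetic beads bind in this isolation, a surface marker of the myeloid lineage. CON mice (n = 4) ate the standard diet and MAL mice (n = 5) an isocaloric diet low in protein and fat for 1 month. MAL-BG mice (n = 7) ate that same diet and were gavaged with a mixture of commensal Bacteroidales and E. coli, while mice outside MAL-BG received saline. All groups share the strain, the sex, and the bead enrichment, so the RNA is that of a bead-enriched fraction and not of pure microglia.

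Splicing removes introns from pre-mRNA in the spliceosome, which is built from small nuclear RNAs and their proteins. A ring of Sm proteins surrounds the U1, U2, U4, and U5 RNAs, while U6 carries a related LSm ring. U1 and U2 carry proteins of their own, and the SF3a and SF3b complexes anchor U2 at the branch point. SR proteins bind exonic enhancers and help recruit the spliceosome, and hnRNPs coat nascent transcripts and often oppose them. Many of these genes regulate their own mRNA through exons that send it to nonsense-mediated decay.

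Promoter windows of RefSeq on GRCm38.p6, running from 250 bases before to 50 bases after a gene's start, were matched by symbol for 46 of the 52 genes. The windows below are shown for Srsf9, Snrpb2, and Snrpe, which were higher in MAL-BG, and for Hnrnpul1, which was lower, so that the sequence next to the start of these genes can be read beside their values. They lie at chr5:115326927-115327226 on the plus strand (Srsf9), chr2:143062819-143063118 on the plus strand (Snrpb2), chr1:133610231-133610530 on the minus strand (Snrpe), and chr7:25754710-25755009 on the minus strand (Hnrnpul1). Capitals mark the GC box (GGGCGG), the core of the ETS site (CCGGAAG), the CCAAT box (CCAAT), and a YY1-type motif (ATGGCGGC), each read on both strands, and where motifs overlap the capitals run together.
Srsf9: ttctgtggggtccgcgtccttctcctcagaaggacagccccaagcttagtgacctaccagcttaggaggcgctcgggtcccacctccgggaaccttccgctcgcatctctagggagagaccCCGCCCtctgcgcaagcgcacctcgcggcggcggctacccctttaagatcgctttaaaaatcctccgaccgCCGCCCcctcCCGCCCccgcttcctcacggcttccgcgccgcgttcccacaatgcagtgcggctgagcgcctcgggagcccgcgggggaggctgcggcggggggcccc
Snrpb2: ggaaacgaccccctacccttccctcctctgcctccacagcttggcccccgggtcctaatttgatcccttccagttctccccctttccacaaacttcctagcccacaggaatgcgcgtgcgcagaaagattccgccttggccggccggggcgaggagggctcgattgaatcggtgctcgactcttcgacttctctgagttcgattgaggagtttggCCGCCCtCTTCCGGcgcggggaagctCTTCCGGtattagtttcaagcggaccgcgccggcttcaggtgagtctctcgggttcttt
Snrpe: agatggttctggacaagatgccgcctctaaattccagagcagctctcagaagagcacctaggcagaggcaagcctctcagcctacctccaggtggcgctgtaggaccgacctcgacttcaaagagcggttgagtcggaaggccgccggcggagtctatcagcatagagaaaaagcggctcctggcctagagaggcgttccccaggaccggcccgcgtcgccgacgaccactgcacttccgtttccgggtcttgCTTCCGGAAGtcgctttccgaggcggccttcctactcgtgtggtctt
Hnrnpul1: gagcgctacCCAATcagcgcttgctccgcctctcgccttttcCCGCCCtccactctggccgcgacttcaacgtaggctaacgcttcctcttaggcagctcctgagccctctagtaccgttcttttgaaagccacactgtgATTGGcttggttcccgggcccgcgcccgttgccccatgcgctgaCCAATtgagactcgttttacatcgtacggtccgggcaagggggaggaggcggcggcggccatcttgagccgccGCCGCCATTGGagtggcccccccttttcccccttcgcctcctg

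The ETS core stood in both orientations in Snrpe and at 2 places in Snrpb2. Windows of these gene families, 63 in all because some genes have several starts, held CCGGAAG in 33.3% of cases, against 8.86% of the 32851 windows of the genome. GGGCGG was present in 68.3% against 35.7%, CCAAT in 44.4% against 37.4%, and ATGGCGGC in 11.1% against 2.24%. Of 4 further motifs searched on both strands, CGCATGCG was present in 12.7% against 1.87%, CACGTG in 11.1% against 7.15%, TGACGTCA in 3.17% against 1.79%, and CTTTTCC in 1.59% against 8.06%. Among the 14 genes with a window that passed as higher against CON, 7 held CCGGAAG, against 16 of all 46 genes with a window. GGGCGG was held by 8 of the 14 against 33 of the 46, CCAAT by 5 against 23, and ATGGCGGC by 3 against 6. CACGTG was held by 1 of the 14 against 6 of the 46. CGCATGCG, TGACGTCA, and CTTTTCC were held by 0 of the 14, against 4, 2, and 1 of the 46. These matches describe letters only.

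Libraries held 10312703 to 18705202 counts, and levels are given as CPM, counts relative to library sizes scaled by TMM. Libraries are numbered as in the deposited table. Of the marker lists examined, 10 of 14 microglial genes passed the test used below as higher in MAL-BG against CON, with summed levels of 40676 to 55315 CPM in MAL-BG, 19065 to 30731 CPM in CON, and 19589 to 33346 CPM in MAL. Neuronal markers were lower for 15 of 16 genes, with sums of 57.2 to 127 CPM in MAL-BG against 185 to 747 CPM in CON. Choroid plexus epithelial markers were lower for 10 of 10 genes, with sums of 1480 to 13230 CPM in MAL-BG against 10770 to 41544 CPM in CON. Astrocyte markers were lower for 5 of 9 genes, and lymphocyte markers were higher for 3 of the 5 tested, with sums of 44.2 to 79.4 CPM in MAL-BG against 18.9 to 32.7 CPM in CON. Oligodendrocyte markers were higher for 3 of 9 genes against CON and 4 of 9 against MAL, and endothelial markers for 2 of 8 and 4 of 8, with endothelial sums of 1210 to 3734 CPM in MAL-BG against 567.8 to 1988 CPM in CON. Monocyte and border macrophage markers were each lower for 1 of 7 genes against CON and 2 of 7 against MAL. Early response genes were lower for 4 of 10 and higher for 1 of 10 against CON, and lower for 6 and higher for 2 against MAL, with sums of 8808 to 24242 CPM in MAL-BG. Neutrophil markers were higher for 8 of 9, and the summed neutrophil level of MAL-BG library 5 stood apart at 12174 CPM. CON library 1 and MAL library 4 had the highest sums of early response genes in their groups, 36586 and 42490 CPM, and the lowest choroid plexus sum in MAL was that of library 4, at 5021 CPM. In such a fraction, fewer cells of a type and less RNA per cell cannot be told apart, and the part of cell makeup in the values below was not tested.

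The comparison of MAL-BG with CON asked how diet and bacteria together changed these genes. Against CON, 16 of the 50 genes (32%) passed as higher and 4 (8%) as lower, where 19.8% of all genes tested were higher and 25.2% lower (edgeR's quasi-likelihood test, adjusted p under 0.05). The fitted log2 fold change had a median of 0.19 over the 50 genes and -0.04 over all genes tested. A value above 0 was seen for 32 of the 50, beside 47.5% of all genes tested. Changes were mostly small: with the further demand of an absolute log2 fold change above 0.58, 4 of the 50 were higher and 2 lower, against 11.4% and 21.7% of all genes, and against MAL 4 were higher and 1 lower, against 10.2% and 20.2%. Against MAL, which differs from MAL-BG by the gavage of bacteria, 16 of the 50 were higher and 5 lower, beside 20.2% and 24.1% of all genes, and the median was 0.17. Both comparisons use the same MAL-BG libraries. Called in both and in the same direction were 14 higher genes and 4 lower genes, and 27 of the 50 were called in neither. The matching shares of all genes are not given here, so these numbers cannot be set against a background. With 1 library left out, counts of higher genes ran from 12 to 19 against CON and from 14 to 20 against MAL. The 12 without CON library 2 and the 19 without MAL-BG library 2 stood beside 15.5% and 20.9% of all genes. The 14 without MAL library 1 and the 20 without MAL-BG library 2 stood beside 17.3% and 20.9%. Counts of lower genes rested on single libraries. Against CON they were 1 without MAL-BG library 4 or 7, 2 without CON library 2 or 3 or MAL-BG library 1 or 2, and 8 without MAL-BG library 6. Against MAL they were 0 without MAL-BG library 1, 2, 4, or 7, 3 without MAL library 1, 4, or 5, and 8 without MAL-BG library 6. The share of all genes lower also moved. Without MAL-BG library 7 it was 20.2% against CON and 19.2% against MAL, and without MAL-BG library 6 it was 27.3% and 26.6%.

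The split of calls moved with the model of gene length and GC content. With offsets for both, 13 of the 50 were higher and 6 lower than in CON, beside 19.4% and 25.9% of all genes, and 20 were higher and 1 lower when each library was also scaled by its mean log2 CPM, an alternative chosen after seeing the data. Of all genes tested, 32.3% were then higher and 17.4% lower, and that scaling moved the median of all genes from -0.04 to 0.20 on the log2 scale, and the median of the 50 genes was then 0.29. With CON library 1, MAL library 4, and MAL-BG library 5 left out together, also chosen after seeing the data, the numbers against CON came to 21 and 4, beside 25.6% and 24.4% of all genes.

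**Figure D1:**
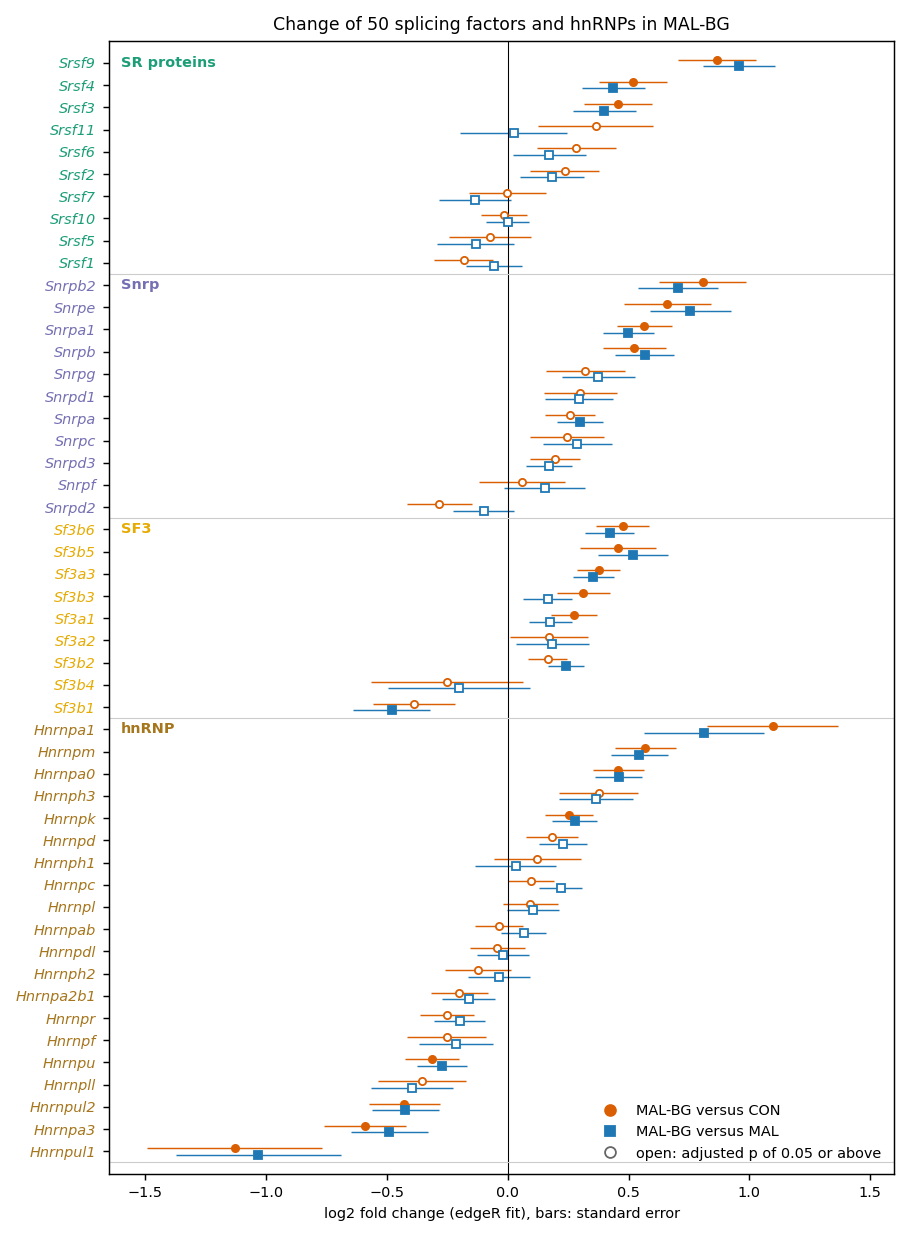
Log2 fold change of each of the 50 genes in MAL-BG against CON (circles) and against MAL (squares), with standard errors, grouped by family and filled where the adjusted p was under 0.05. Filled points of the SR and Snrp families all lie right of 0, whereas the hnRNPs run from Hnrnpul1 at -1.13 to Hnrnpa1 at 1.10 against CON.

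MAL versus CON asked for the effect of the diet alone. None of the 50 genes was called (0 of 14565 genes in all by edgeR's quasi-likelihood test), 0 of the 50 had an unadjusted p under 0.05 by edgeR and 0 by DESeq2, and 212 of all genes did by edgeR and 241 by DESeq2. The widest difference among the 50 was that of Srsf11, with a log2 fold change of 0.34. CON and MAL levels are therefore printed side by side for each gene below, and MAL-BG is set against each of them.

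SR proteins have an RNA-binding domain and a tail rich in arginine and serine that kinases phosphorylate. Of the 10 tested, 3 (30%) passed as higher in MAL-BG against CON, 0 as lower, and 7 were not called, and the same counts held against MAL. Of all genes tested, 19.8% were higher and 25.2% lower against CON, and 20.2% and 24.1% against MAL. Without CON library 1 the count of SR genes higher against CON was 5, beside 21.7% of all genes. Srsf9, which acts in alternative 5′ splice site choice, had 181, 138, 152, and 121 CPM in the 4 CON libraries and 139, 126, 125, 172, and 132 CPM in the 5 MAL libraries. In MAL-BG its level had a lowest value of 194, a median of 259, and a highest value of 339 CPM, so that all 7 MAL-BG libraries lay above all 9 others. This complete separation was seen for 4 of the 50 genes, beside 6.17% of all genes tested, and MAL-BG below all 9 others for 0 of the 50, beside 6.36%. Fitted by edgeR, Srsf9 changed by 0.87 ± 0.16 (SE) on the log2 scale against CON (adjusted p = 0.000542) and 0.96 ± 0.15 against MAL (adjusted p = 0.000158).

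Srsf4, one of the larger SR proteins, had 104, 85.8, 81.6, and 74.5 CPM in CON and 91.6, 87.9, 82.2, 117, and 79.6 CPM in MAL. In MAL-BG it ran from 98.1 through a median of 127 to 157 CPM, with 4 of 7 libraries above all 9 others. The log2 change was 0.52 ± 0.14 against CON (adjusted p = 0.0068, edgeR) and 0.44 ± 0.13 against MAL (adjusted p = 0.0125). An antisense transcript, Gm12992, shares 43% of the exon length of Srsf4, and the strand setting of the counting is not given in the sources used here. Srsf3, the smallest SR protein and one that also serves mRNA export, had 188, 154, 158, and 151 CPM in CON, and 161, 140, 176, 216, and 152 CPM in MAL. It ran from 186 through 211 to 293 CPM in MAL-BG and overlapped the other groups through CON library 1 and MAL library 4, at 0.45 ± 0.14 on the log2 scale against CON (adjusted p = 0.015, edgeR) and 0.40 ± 0.13 against MAL (adjusted p = 0.0202). The call of Srsf3 against MAL was lost without MAL library 2 or MAL library 5, where the adjusted p rose to at most 0.0622.

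Srsf1 and Srsf2, the founding members of the family, did not pass the test. Srsf1 had 233, 275, 226, and 194 CPM in CON, 226, 218, 212, 180, and 225 CPM in MAL, and 158, 207, and 244 CPM as the lowest, median, and highest values of MAL-BG, and the groups overlapped (log2 fold change against CON -0.18 ± 0.12, adjusted p = 0.241, edgeR). Srsf2 had 360, 271, 265, and 224 CPM in CON, 315, 255, 284, 359, and 239 CPM in MAL, and 275, 330, and 402 CPM in MAL-BG. The log2 change of Srsf2 against CON was 0.24 ± 0.14 (adjusted p = 0.188, edgeR), and it was 0.38 with an adjusted p of 0.0336 when CON library 1 was left out and 0.085 with an adjusted p of 0.616 with length and GC offsets. CON library 1 and MAL library 4 held the highest level of their groups for several SR genes: Srsf11 stood at 389 CPM in CON library 1 against 211 to 251 CPM in the other CON libraries, and at 509 CPM in MAL library 4 against 286 to 309 CPM. For Srsf6 the corresponding values were 434 CPM against 225 to 272 CPM in CON. Over the 50 genes, CON library 1 was the highest CON library for 26 (52%) and MAL library 4 the highest MAL library for 32 (64%), beside 37% and 31.9% of all genes tested. The part of these libraries in the SR values was not tested beyond the refits without them.

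Srsf12, a minor SR protein, did not pass the filter on low counts, with 6, 18, 17, and 12 counts in CON, 5, 5, 5, 1, and 4 in MAL, and 0 to 2 counts in MAL-BG, where 5 of 7 libraries were at 0. It was not tested, and no fold change is given.

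**Figure D2:**
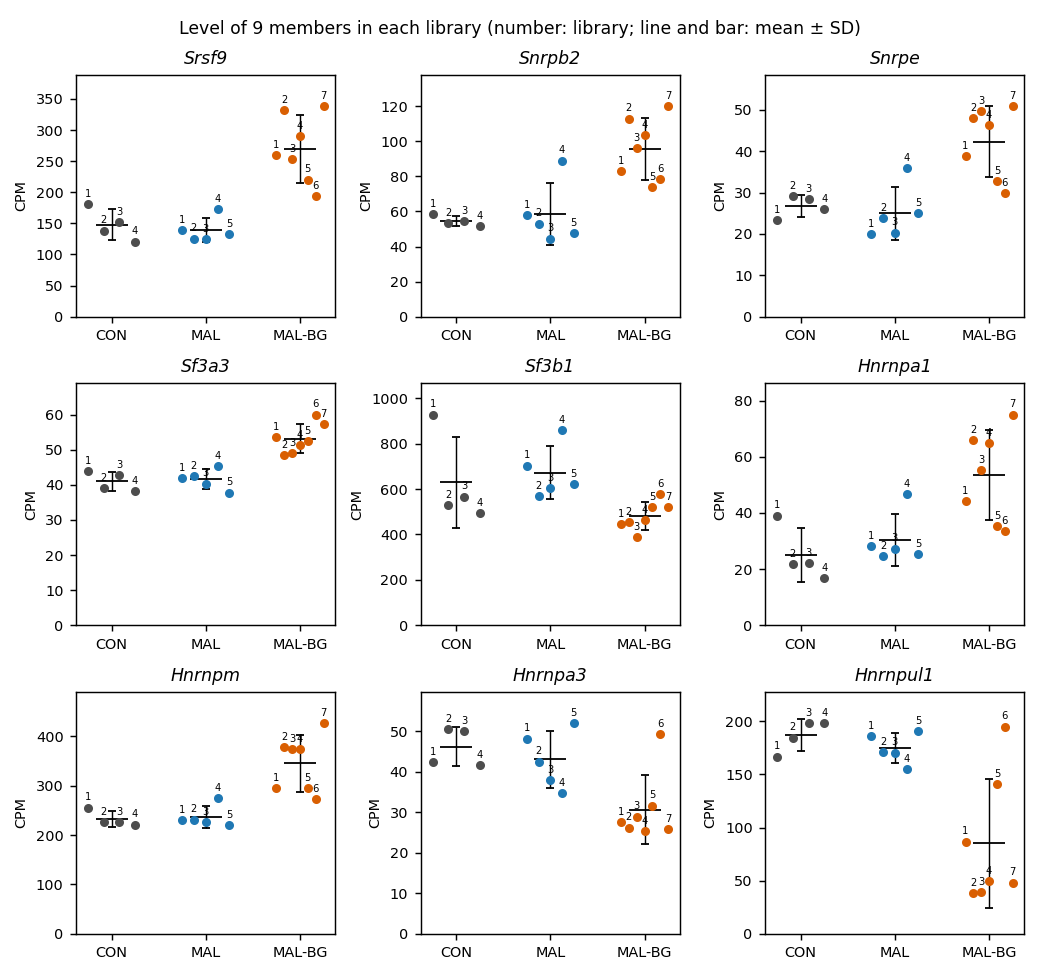
Level in CPM (linear axis from 0) of 9 genes in each library, labelled by library number, with the mean and SD of each group. Srsf9 and Sf3a3 show MAL-BG above all other libraries, and Hnrnpul1 shows MAL-BG libraries 5 and 6 at 141 and 195 CPM against 38 to 86.7 CPM in the other 5.

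The Snrp family holds the Sm ring and proteins of U1 and U2. Of 11 genes tested, 4 (36.4%) passed as higher against CON and 0 as lower, beside 19.8% and 25.2% of all genes. Against MAL, 5 (45.5%) were higher and 0 lower, beside 20.2% and 24.1%. Without MAL-BG library 6 the count of Snrp genes higher against MAL was 8, beside 22.2% of all genes. The median of the 11 log2 fold changes was 0.30 in both comparisons. The summed level of the family was 414 to 447 CPM in CON, 387 to 511 CPM in MAL, and 457 to 672 CPM in MAL-BG. Sums of the other families overlapped between the groups. In CON, MAL, and MAL-BG they were 1878 to 2971, 2132 to 2957, and 2269 to 3199 CPM for SR genes. For SF3 they were 1074 to 1470, 1152 to 1461, and 1003 to 1289 CPM. For hnRNPs they were 4131 to 5005, 4073 to 4955, and 4042 to 5013 CPM. In the Sm ring, Snrpe (SmE) had 23.4, 29.2, 28.5, and 26 CPM in CON, 20, 23.9, 20.3, 35.9, and 25.1 CPM in MAL, and a lowest, median, and highest value of 29.8, 46.3, and 50.9 CPM in MAL-BG, where all 7 libraries lay above the CON libraries and 5 above all 9. The log2 change of Snrpe was 0.66 ± 0.18 against CON (adjusted p = 0.00709, edgeR) and 0.76 ± 0.17 against MAL (adjusted p = 0.00191), and it fell to 0.36 (adjusted p = 0.0853) with offsets for length and GC content. Snrpb, which encodes SmB, had 127, 145, 146, and 140 CPM in CON, 129, 142, 135, 148, and 123 CPM in MAL, and 134, 199, and 245 CPM in MAL-BG. Only MAL-BG library 6 overlapped the others, and the log2 fold change was 0.52 ± 0.13 (adjusted p = 0.00401, edgeR). The other ring members were called in neither comparison. Snrpd1 (SmD1) had 21.3, 32.5, 26.8, and 26.7 CPM in CON, 24.9, 26.4, 22.5, 34.4, and 26.4 CPM in MAL, and 23.9, 32.5, and 40.1 CPM in MAL-BG (log2 fold change 0.30 ± 0.15, adjusted p = 0.114, edgeR). Without MAL-BG library 6 it was 0.37, with an adjusted p of 0.0367, and with length and GC offsets 0.034, with an adjusted p of 0.853. Snrpd2 was the only tested Snrp gene with a value below 0 against CON, at -0.28 ± 0.13 (adjusted p = 0.0929, edgeR), and Snrpf, Snrpg, and Snrpd3 had values between 0.06 and 0.32. Ccdc38 overlaps 65.9% of the exon length of Snrpf on the other strand.

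Among the proteins specific to U1 and U2, Snrpa and Snrpc of U1 and Snrpa1 and Snrpb2 of U2 had values above 0 in both comparisons, of which 2 of 4 passed the test against CON and 3 of 4 against MAL. Snrpb2 had 58.4, 53.5, 54.7, and 51.5 CPM in CON and 58, 53.1, 44.5, 89, and 47.9 CPM in MAL. In MAL-BG its lowest, median, and highest values were 73.7, 96.2, and 120 CPM, all above CON, and MAL library 4 alone overlapped them (log2 fold change 0.81 ± 0.18 against CON, adjusted p = 0.00186, edgeR). Snrpa1 had 25.4, 23, 22.8, and 21 CPM in CON, 24.8, 24.5, 20.9, 27, and 23.3 CPM in MAL, and 28.2, 33.4, and 41.6 CPM in MAL-BG, with no overlap. The change was 0.56 ± 0.11 against CON (adjusted p = 0.000984, edgeR) and 0.50 ± 0.11 against MAL (adjusted p = 0.00139), and 0.37 and 0.32 with length and GC offsets (adjusted p = 0.00784 and 0.014). Snrpa was called against MAL (0.30 ± 0.10, adjusted p = 0.0186, edgeR) but against CON had an adjusted p of 0.0502, with nearly the same log2 fold change of 0.26, and its call against MAL was lost without MAL library 1 or MAL library 3 (adjusted p of at most 0.0559), with the libraries thinned to the total of the smallest, and with length and GC offsets.

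Snrpn, the neuronal SmN gene, was at 0 in 15 libraries and at 3 counts in MAL library 5. It shares exons with Snurf, which was at 0 in all 16 libraries, so the table holds no level for either gene, and reads that fit both genes may have gone uncounted, depending on the counting mode. It was not tested.

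The SF3 subunits belong to SF3a or SF3b. Of 9 tested, 5 (55.6%) passed as higher in MAL-BG against CON and 0 as lower, beside 19.8% and 25.2% of all genes. Against MAL, 4 (44.4%) were higher and 1 (11.1%) lower, beside 20.2% and 24.1%. In either comparison 0 of the 9 reached an absolute log2 fold change of 0.58. The count higher against CON was 2 without CON library 2 and 3 without CON library 4, beside 15.5% and 15.8% of all genes. The 1 gene lower against MAL, Sf3b1, was not called without MAL library 4 or MAL-BG library 1, 2, 4, or 7. Sf3a3 had 43.8, 39.1, 42.7, and 38.3 CPM in CON, 42, 42.5, 40.4, 45.4, and 37.8 CPM in MAL, and 48.5, 52.5, and 60 CPM in MAL-BG, with all 7 above all 9 others. Against CON it changed by 0.38 ± 0.09 (adjusted p = 0.00324, edgeR). Sf3a1, a scaffold of SF3a, had 56.4, 66.6, 69, and 70.9 CPM in CON, 73.6, 67, 69.8, 75, and 66.1 CPM in MAL, and 71.1, 77.9, and 93.7 CPM in MAL-BG, at 0.27 ± 0.09 against CON (adjusted p = 0.0254, edgeR) and 0.18 ± 0.09 against MAL (adjusted p = 0.108). Its call against CON was lost without CON library 1, CON library 2, or MAL-BG library 5, with an adjusted p of at most 0.0809, and with thinned libraries. With length and GC offsets Sf3a1 was at 0.54 against CON (adjusted p = 0.000342) and was called against MAL as well, at 0.44 (adjusted p = 0.000807). In SF3b, Sf3b6 (p14), which touches the branch point adenosine, had 30.3, 36.9, 35.5, and 36.8 CPM in CON, 37.7, 36.1, 34.8, 41.5, and 30.7 CPM in MAL, and 40.8, 49, and 56.8 CPM in MAL-BG. Against CON it changed by 0.48 ± 0.11 (adjusted p = 0.00222, edgeR), and 0.21 (adjusted p = 0.0876) with length and GC offsets, which also ended its call against MAL (0.19, adjusted p = 0.101). Sf3b5, a small subunit, had 34.2, 34.2, 36.6, and 35.9 CPM in CON, 28.9, 37.4, 29.7, 40.4, and 32.5 CPM in MAL, and 28.2, 50.6, and 56.5 CPM in MAL-BG, where 6 libraries lay above all 9 others and library 6 lay below all 9. Its log2 fold change was 0.46 ± 0.16 against CON (adjusted p = 0.0254, edgeR), a call lost without CON library 2 or CON library 4 (adjusted p of at most 0.0633).

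Sf3b1, the largest SF3b subunit and the one that holds the branch site, had values below 0. Its levels were 928, 529, 567, and 495 CPM in CON, 704, 569, 604, 860, and 621 CPM in MAL, and 390, 462, and 577 CPM in MAL-BG. MAL-BG overlapped CON and MAL, and CON library 1 and MAL library 4 were the highest of their groups. The log2 fold change was -0.39 ± 0.17 against CON (adjusted p = 0.0698, edgeR), and -0.14 without CON library 1. Against MAL it was -0.48 ± 0.16 (adjusted p = 0.0207), a call lost without MAL library 4 or without MAL-BG library 1, 2, 4, or 7 (adjusted p of at most 0.0785). With length and GC offsets its value against MAL was -0.14 (adjusted p = 0.505), and with the mean log2 CPM scaling too it turned to 0.076. Sf3b4 was called in neither comparison and varied more within MAL-BG than any other SF3 gene: 9.19, 10.3, 12.2, and 10.8 CPM in MAL-BG libraries 2, 3, 4, and 7, and 23.8, 30.5, and 32.3 CPM in libraries 1, 5, and 6, beside 17.3 to 24.6 CPM in CON and MAL. MAL-BG thus held libraries on both sides of the other groups.

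Of the 20 hnRNPs tested, 4 (20%) passed as higher and 4 (20%) as lower against CON, and the same counts held against MAL, so that the share higher was close to that of all genes and the share lower was under it. Without MAL-BG library 2, 7 were higher against MAL, beside 20.9% of all genes. The count lower against CON was 7 without MAL-BG library 6, beside 27.3% of all genes. It was 2 without CON library 2 or 3 or MAL-BG library 1 or 2, beside 20.6% to 21.7%. Without MAL-BG library 4 or 7 it was 1, beside 20.7% and 20.2%. Against MAL it was 7 without MAL-BG library 6, beside 26.6%, and 2 without MAL library 1 or 5, beside 22.1% and 20.6%. It was 0 without MAL-BG library 1, 2, 4, or 7, beside 19.2% to 20.1%. Hnrnpa1, which competes with SR proteins for exonic sites, had 39.1, 21.8, 22.1, and 16.9 CPM in CON, 28.1, 24.7, 27.3, 46.7, and 25.4 CPM in MAL, and 33.6, 55.1, and 75 CPM in MAL-BG. It had the largest rise of the 50 genes against CON, at 1.10 ± 0.27 on the log2 scale (adjusted p = 0.00384, edgeR), with 4 of 7 MAL-BG libraries above all 9 others. Hnrnpa1 has processed copies elsewhere in the genome, and reads shared with them may not have been counted, so its level is uncertain. Hnrnpm, which binds GU-rich sequence, had 256, 227, 227, and 221 CPM in CON, 230, 231, 226, 275, and 220 CPM in MAL, and 273, 374, and 427 CPM in MAL-BG, where only MAL library 4 overlapped MAL-BG library 6. Against CON it changed by 0.57 ± 0.13 (adjusted p = 0.00184, edgeR). Hnrnpm shares 14.7% of its exon length with March2 on the same strand. Hnrnpa0, which stabilizes AU-rich transcripts, had 261, 225, 254, and 226 CPM in CON, 246, 232, 224, 282, and 222 CPM in MAL, and 281, 336, and 369 CPM in MAL-BG (0.46 ± 0.10, adjusted p = 0.00224, edgeR). Hnrnpk, a poly(C)-binding protein, had 406, 410, 427, and 394 CPM in CON, 390, 355, 380, 488, and 402 CPM in MAL, and 446, 481, and 544 CPM in MAL-BG. It was just inside the threshold against CON, at 0.25 ± 0.10 (adjusted p = 0.0464, edgeR), and the call was lost without any 1 of the 4 CON libraries, without MAL library 1, 3, or 5, or without MAL-BG library 4, 5, or 7 (adjusted p of at most 0.114), with thinned libraries, and with length and GC offsets (0.04, adjusted p = 0.732). Against MAL it was 0.28 ± 0.09 (adjusted p = 0.0226), lost without MAL library 1, 2, or 3 (adjusted p of at most 0.0701) and with length and GC offsets (0.072, adjusted p = 0.462).

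Hnrnpul1, a relative of hnRNP U that takes part in RNA processing and the DNA damage response, had the largest fall. Its level was 167, 185, 198, and 198 CPM in CON and 186, 171, 171, 155, and 191 CPM in MAL. MAL-BG libraries 1, 2, 3, 4, and 7 held 86.7, 38, 39.2, 49.9, and 48.1 CPM, far below all 9 others, while library 5 held 141 CPM, just below them, and library 6 held 195 CPM, inside the CON range. The log2 fold change was -1.13 ± 0.36 against CON (adjusted p = 0.0179, edgeR) and -1.03 ± 0.34 against MAL (adjusted p = 0.0219). The call against CON was lost without MAL-BG library 4 or MAL-BG library 7 (adjusted p of at most 0.0536), and that against MAL without MAL-BG library 1, 2, 4, or 7 (adjusted p of at most 0.0646), although the value was -0.84 or lower in each. Hnrnpul2, its paralog, had 209, 254, 247, and 240 CPM in CON, 251, 227, 239, 231, and 234 CPM in MAL, and 122, 174, and 233 CPM in MAL-BG, with libraries 5 and 6 inside the range of the other groups (-0.43 ± 0.15, adjusted p = 0.0254, edgeR). The call was lost without CON library 2, 3, or 4 or MAL-BG library 1, 2, 4, or 7 (adjusted p of at most 0.112), and it was -0.15 (adjusted p = 0.395) with length and GC offsets. Hnrnpul2 against MAL was -0.42 ± 0.14 (adjusted p = 0.0199, edgeR), lost without MAL-BG library 1, 2, 4, or 7 (adjusted p of at most 0.0872) and with length and GC offsets (-0.14, adjusted p = 0.424). Hnrnpu, the scaffold attachment factor that the pair resembles, had 543, 528, 520, and 479 CPM in CON, 513, 433, 499, 562, and 505 CPM in MAL, and 361, 403, and 511 CPM in MAL-BG (-0.31 ± 0.11, adjusted p = 0.0292, edgeR). The sign of the Hnrnpu value turned to 0.04 with length and GC offsets (adjusted p = 0.779), and its call against CON was lost without CON library 1, 2, or 3 or MAL-BG library 1, 2, 4, or 7 (adjusted p of at most 0.167). Against MAL it was -0.27 ± 0.10 (adjusted p = 0.0427, edgeR), and 11 of the 16 left-out libraries ended the call (CON 2 and 3, MAL 1, 3, 4, and 5, MAL-BG 1, 2, 3, 4, and 7), with an adjusted p of at most 0.208. Hnrnpa3 had 42.3, 50.6, 50.1, and 41.7 CPM in CON, 48.2, 42.5, 38, 34.6, and 52 CPM in MAL, and 25.3, 27.5, and 49.2 CPM in MAL-BG, where 6 of 7 libraries lay below all 9 others and library 6 stood at the highest value. The change was -0.59 ± 0.17 against CON (adjusted p = 0.00964, edgeR), and -0.74 without MAL-BG library 6. Against MAL it was -0.49 ± 0.16 (adjusted p = 0.0198), a call lost without MAL library 1 or 5 or MAL-BG library 1, 2, 4, or 7 (adjusted p of at most 0.0824). Hnrnpa2b1, an abundant member that also sorts RNA for transport, had 674, 594, 571, and 534 CPM in CON, 606, 545, 588, 558, and 591 CPM in MAL, and 401, 489, and 596 CPM in MAL-BG (-0.20 ± 0.12, adjusted p = 0.173, edgeR). With length and GC offsets it was -0.39 (adjusted p = 0.00416), and -0.31 against MAL (adjusted p = 0.0134). The F and H proteins, which bind G-rich runs, gave 0 calls of 4 in either comparison.

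**Figure D3:**
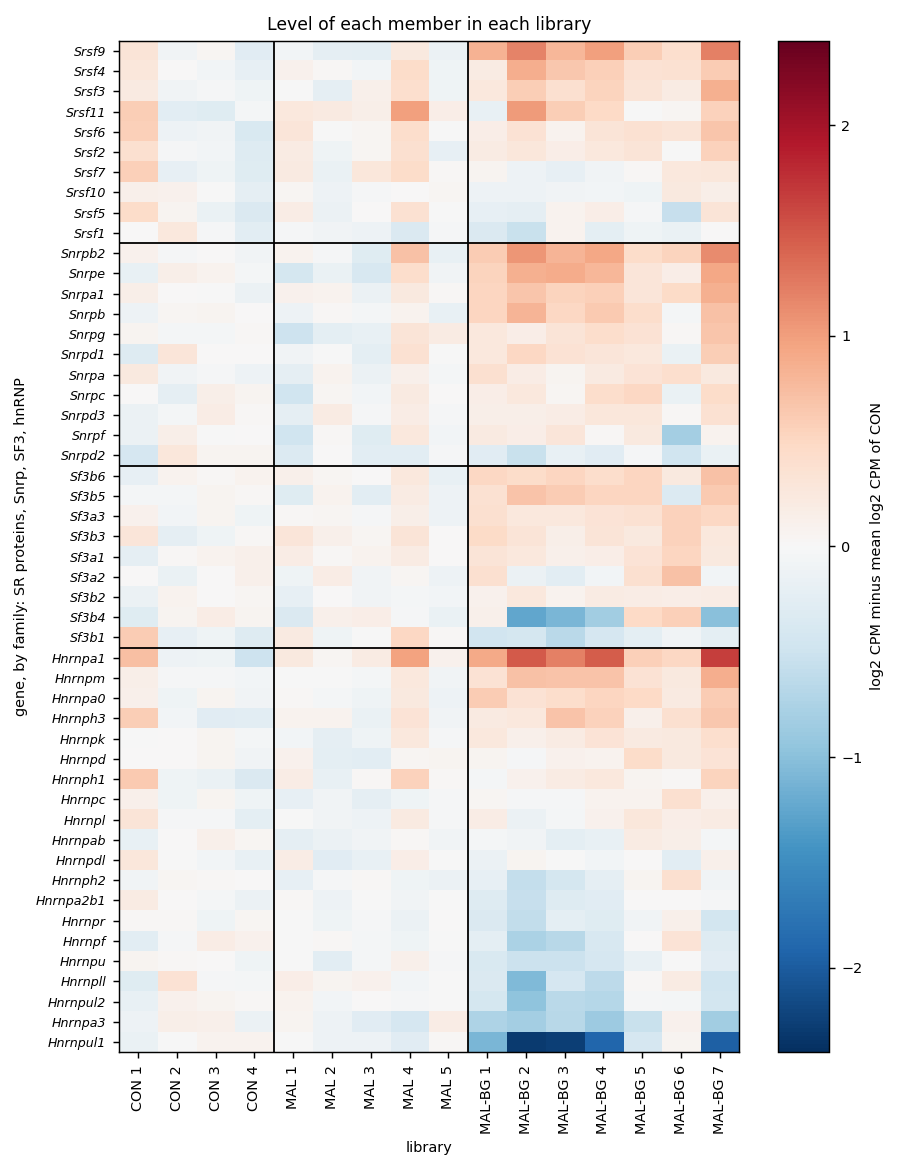
Log2 CPM of each of the 50 genes in each of the 16 libraries, minus the mean of the CON libraries, with families separated by lines. CON library 1 and MAL library 4 carry higher values for many SR genes, and MAL-BG libraries 5 and 6 are near CON for Hnrnpul1, whose other MAL-BG libraries are lower.

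Within MAL-BG the same libraries recurred at the extremes. Library 7 was the highest of the group for 19 of the 50 genes (38%) and library 6 for 17 (34%), beside 9.05% and 24.4% of all genes tested. Library 6 was also the lowest for 17 of the 50 (34%, beside 26.8% of all genes), and library 2 for 15 (30%, beside 17.7%). Library 7 was the lowest for 0 of the 50. The ratio of the highest to the lowest MAL-BG library was 5.13 for Hnrnpul1, 3.52 for Sf3b4, the widest of the 50 genes, and 1.12 for Sf3b2, the narrowest.

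Levels can be compared between genes only per length, here in CPM per kilobase of the median protein-coding transcript of GENCODE M21, averaged over the 16 libraries. The highest were those of Hnrnpk at 464, Srsf5 at 362, Hnrnpa2b1 at 338, Hnrnph1 at 288, and Srsf9 at 206, and the lowest of the tested genes were Sf3b4 and Sf3b5, both at 10.6. Hnrnpk has short annotated transcripts, with a median of 952 bases, which raises its value on this scale.

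The 50 genes were short beside the rest, with a median transcript of 1744.5 bases against 2184 over the 14023 genes with a length. Across the 50 genes, the log2 fold change against CON fell with transcript length (Spearman's rho = -0.36 across genes, which share libraries and are not replicates), as it did across the 14023 genes (rho = -0.21). The rho with GC content was 0.16 and 0.002 for the same sets. In single libraries the slope of log2 CPM on length was -0.02 to -0.16 per doubling in MAL-BG and -0.01 to 0.13 in CON and MAL. The part of length in the calls was tested only through the offsets above.

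**Figure D4:**
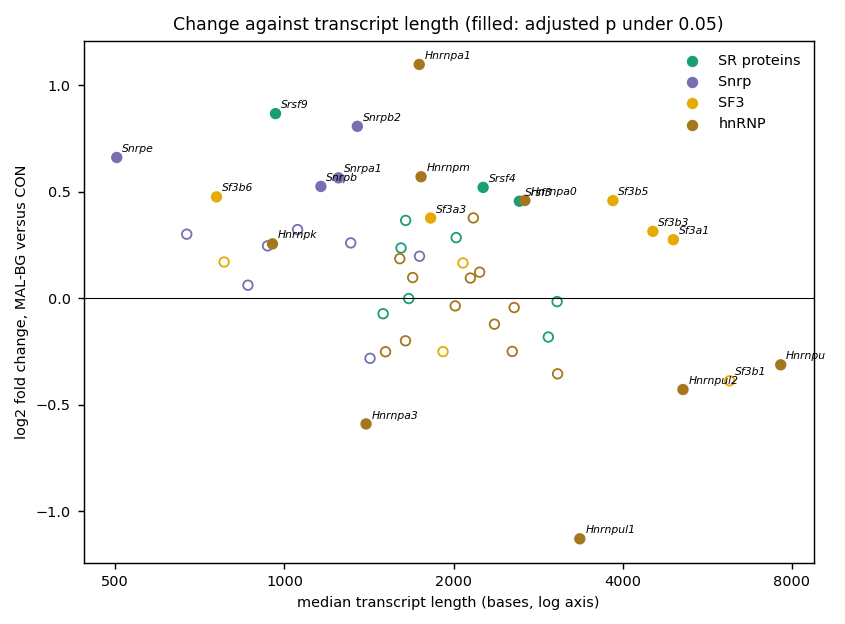
Log2 fold change against CON of each of the 50 genes against its median transcript length on a log axis, coloured by family and filled where the adjusted p was under 0.05. Short Snrp genes such as Snrpe lie above 0 and the long Hnrnpu, Hnrnpul2, and Sf3b1 below 0, although Sf3a1, Sf3b3, and Sf3b5 are long and lie above 0.

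Other genes of the splicing pathway were read from lists of 157 genes, 156 of them tested. Of these, 50 (32.1%) were higher and 21 (13.5%) lower than in CON, beside 19.8% and 25.2% of all genes tested. Against MAL, 44 (28.2%) were higher and 21 (13.5%) lower, beside 20.2% and 24.1%. The 44 became 26 without MAL library 3 and 29 without MAL library 5, beside 16.4% and 16.5% of all genes. Proteins of the spliceosome core outside the named families gave 21 higher (42%) and 3 lower (6%) of 50 against CON. Phf5a, which packs against Sf3b1, had the largest rise, from 28.3 ± 1.67 (SD, n = 4) in CON and 28.8 ± 4.19 (SD, n = 5) in MAL to 56.1 ± 12.1 CPM (SD, n = 7) in MAL-BG (log2 fold change 0.99 ± 0.16, adjusted p = 0.000191, edgeR). Snrnp200, the helicase that unwinds U4 and U6, had the largest fall, at -0.65 ± 0.17 (adjusted p = 0.00519, edgeR), and was at -0.26 (adjusted p = 0.177) with length and GC offsets. The minor spliceosome, which removes rare introns, gave 3 higher (27.3%) and 1 lower (9.09%) of 11, with Pdcd7 at 0.83 ± 0.09 (adjusted p = 1.33e-05, edgeR) and Rnpc3 at -0.77 ± 0.20 (adjusted p = 0.00534).

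The machinery that loads Sm rings onto small nuclear RNA gave 6 higher (37.5%) and 0 lower of 16 against CON, beside 19.8% and 25.2% of all genes tested, led by Tgs1, the cap hypermethylase, at 0.84 ± 0.14 (adjusted p = 0.000305, edgeR). Kinases and the importer of SR proteins gave 3 higher (30%) and 3 lower (30%) of 10: Clk2 rose by 1.07 ± 0.33 (adjusted p = 0.0139, edgeR; at most 0.0527 without CON library 2 or 3), and Srpk1, the cytoplasmic SR kinase, was at -0.91 ± 0.18 (adjusted p = 0.000946). SR-related proteins gave 1 higher (7.69%) and 4 lower (30.8%) of 13, with Rbm25 at 0.76 ± 0.29 (adjusted p = 0.0402, edgeR) and Scaf1 at -0.56 ± 0.16 (adjusted p = 0.0104). The Rbm25 call was lost without CON library 1, 2, or 3 or MAL-BG library 2, 3, or 7 (adjusted p of at most 0.108) and with length and GC offsets (0.52, adjusted p = 0.146), and the Scaf1 call without MAL-BG library 2, 4, or 7 (at most 0.0572) and with length and GC offsets (-0.13, adjusted p = 0.627). Against MAL, SR-related proteins gave 0 higher and 4 lower of 13, and the kinases and importer 1 higher and 3 lower of 10. Rbm25 was not called against MAL (0.45, adjusted p = 0.177, edgeR), whereas Scaf1 was lower (-0.52, adjusted p = 0.011). Splicing regulators and hnRNPs that carry other names gave 9 higher (33.3%) and 1 lower (3.7%) of 27, with Celf2 at 0.96 ± 0.20 (adjusted p = 0.00123, edgeR) and Ptbp1 at -0.55 ± 0.14 (adjusted p = 0.00557). Nonsense-mediated decay and exon junction genes gave 6 higher (40%) and 1 lower (6.67%) of 15, with Smg9 at 0.88 ± 0.24 (adjusted p = 0.00732, edgeR) and Smg1, a kinase of that pathway, at -0.99 ± 0.20 (adjusted p = 0.000964).

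Neuronal splicing regulators gave 1 higher (7.14%) and 8 lower (57.1%) of 14 tested against CON, beside 19.8% and 25.2% of all genes. Celf5 had the largest fall, from 6.5 ± 3.04 CPM in CON (SD, n = 4) to 0.439 ± 0.160 CPM in MAL-BG (SD, n = 7), at -3.85 ± 0.38 on the log2 scale (adjusted p = 5.75e-06, edgeR). Its MAL-BG libraries ran from only 0.23 to 0.62 CPM, so the size of this fall rests on very low counts. Elavl4 was higher at 0.81 ± 0.23 (adjusted p = 0.00919, edgeR). The neuronal markers fell in the same libraries, with sums of 57.2 to 127 CPM in MAL-BG against 185 to 747 CPM in CON.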

How the data were processed

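RNA-Seq of bead-enriched CD11b+ brain cells was analysed in 16 libraries of CON (4), MAL (5), and MAL-BG (7) mice. The authors aligned stranded, poly(A)-selected paired reads to GRCm38.p6 with STAR and deposited counts per gene from HTSeq, which were not normalized; the counting mode and strand setting are not given in the sources used here. Columns name a group and a running number that matches no sample title, so no batch term was fitted, and p-values measure the spread between libraries. 

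A gene was kept where at least 4 libraries exceeded 10 counts (14565 of 24421 rows, 27 of the rows with date-like names). Libraries were scaled by TMM and the 3 groups fitted together by the quasi-likelihood test of edgeR 4.0.16 in R 4.3.3, with Benjamini-Hochberg adjustment over all genes of a comparison. Steps were tested on simulated data. Library totals of 10312703 to 18705202 counts gave at least 96 counts in each library for each of the 50 tested splicing genes. No pair of replicates agreed within counting noise, the smallest chi-square divided by its degrees of freedom being 9.80. Transcript length and GC content came from GENCODE M21 (14023 genes), and promoters from RefSeq. Genes named one by one were fixed role-defining members, up to 3 largest rises and falls in each family among those called in both MAL-BG comparisons, and the largest called rise and fall of each pathway list; the other members named singly, such as Sf3b4 and Srsf11, were added after their values were seen. The members and lists were chosen with earlier results of these data known. Alternatives were other scalings, DESeq2 1.42.0, other filters, other sets of libraries, thinned libraries, and length and GC offsets.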

Additional observations from a re-analysis of the deposited data

Results flagged for a closer look

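A library stood apart from the rest of its group, by Dixon's test at the 95% level on log2 CPM, in 4 of the 72 combinations of a named gene and a group; chance alone gives about 1 in 20. MAL library 4 was apart for Hnrnpa1 at 46.7 CPM and for Hnrnpm at 275 CPM, the highest MAL level in both. MAL-BG library 6 was apart for Hnrnpa3 at 49.2 CPM, the highest of its group, and for Sf3b5 at 28.2 CPM, the lowest of its group. MAL library 4 also had the highest early response sum of all libraries, 42490 CPM. Within MAL it had the highest microglial sum, 33346 CPM, and the lowest neuronal sum, 192 CPM. The part of these differences in its values was not tested.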

How the results depend on the processing

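Of 1248 values of named genes under an alternative, 1129 kept their direction and side of the threshold, 91 lost a call, 14 gained one, and 14 changed sign. Of the 20 genes called against CON, 13 kept the call whichever library was left out, and of the 21 called against MAL 13 did. No paired analysis was possible because the numbers of the columns match no sample title, so libraries of MAL and MAL-BG with the same title number could not be found.

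Left-out libraries gave 1 to 8 members lower than in CON and 0 to 8 lower than in MAL, 26 to 52 genes of the other splicing lists higher than in MAL, and -0.11 to 0.049 for Srsf1 against MAL. The 26 without MAL library 3 and the 52 without MAL-BG library 6 stood beside 16.4% and 22.2% of all genes. With the added demand on fold change, 4 members were higher and 2 lower than in CON, and 4 and 1 against MAL. The other lists gave 21 higher and 14 lower against CON, and 14 higher and 13 lower against MAL. Of all genes, 11.4% were higher and 21.7% lower against CON, and 10.2% and 20.2% against MAL. Fitting only the compared groups left 2 members lower than in CON, beside 22.7% of all genes. Length and GC offsets left 3 members lower than in MAL, beside 24.4% of all genes. These offsets gave 0.04 (CON) and 0.15 (MAL) for Hnrnpu and 0.019 for Srsf1 (MAL). With mean log2 CPM scaling as well, chosen after seeing the data, 1 member was lower in each comparison and 25 higher than in MAL. The other lists then gave 77 and 70 higher and 14 and 12 lower (CON and MAL). Of all genes, 32.3% were higher and 17.4% lower against CON, and 32.3% and 16.3% against MAL. Values were 0.29 and 0.37 for Hnrnpu, 0.11 and 0.092 for Hnrnpul2, 0.12 and 0.076 for Sf3b1, and 0.094 and 0.25 for Srsf1 (CON and MAL). The cause of these changes was not tested. Thinning the libraries to 1 total ended the calls of Hnrnpk and Sf3a1 against CON and of Snrpa against MAL. It added calls of Hnrnpll and Snrpg against MAL. Thinning also changed the number of genes tested, to 14292, and the part of depth in these changes was not tested. Srsf12 and Snrpn were too low to test.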
